A study of Mus musculus with 30 samples.

Results

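Cytoplasmic ribosomal protein genes were followed through the chemical reprogramming of mouse fibroblasts. The members were the entries of the bulk RNA-seq table whose symbol is Rpl or Rps followed by a number, with an optional a, l, x or y, together with Rplp0, Rplp1, Rplp2 and Rpsa. Entries with -ps in the symbol, the Rps6k kinases and Rpl10l were left out. This gave 80 of the 35275 entries, 48 for the large subunit with its stalk and 32 for the small subunit. The rule used names alone and no measured value. It keeps the paralogs Rpl3l, Rpl39l, Rps27l and Rps4l, and it leaves out genes such as Rps3a1, Fau and Gnb2l1 (also called Rack1), which make ribosomal proteins under other names and are given separately.

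The series holds 30 samples with 1 library per group, of which the 14 bulk RNA-seq libraries are used here. Its 12 single-cell and 4 bisulfite samples are not used here. Along the process the bulk libraries are mouse embryonic fibroblasts (MEF, from E13.5 embryos), a XEN-like line kept with 20 ng/ml bFGF (cells that resemble extraembryonic endoderm), stage II day 12 cells made in N2B27 medium, stage III days 6, 15 and 21, and a chemically induced pluripotent stem cell line (CiPSC line #1, a single line). The reference is an embryonic stem cell (ESC) line from E3.5 embryos of an ICR x ICR cross. The side arms at stage II day 12 are an FBS/KSR culture, a fraction gated as OG+ PDGFRAlow/- PECAM-, and a pair separated by an Emerald reporter on the Zscan4c promoter (positive and negative). Those at day 4 of stage III are cells given "Opt. VPA" and their control. All libraries but the ESC and the reporter pair carry the strain label C57BL/6J-Tg(GOFGFP)11Imeg/Rbrc x ICR. The reporter cells came from a reporter ESC line turned into XEN-like cells, of strain 129S6/SvEvTac x C57BL/6Ncr. ESC and CiPSC grew on mitomycin C-treated MEF feeders with LIF (10 ng/ml) and the inhibitors PD0325901 (at 1 µM) and CHIR99021 (at 3 µM), and N2B27 cultures were also plated on MEF feeders, so feeder RNA can be part of those libraries.

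The ribosome is built from ribosomal RNAs and a fixed set of proteins, most of them used once per ribosome. In mammals the messenger RNAs for these proteins share a pyrimidine-rich start, the 5′ TOP motif, through which mTOR and Larp1 control their translation and stability together. Their genes lie scattered over the genome and are transcribed at high rates in growing cells. Here the members lay on 19 chromosomes.

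The start regions of members whose levels are described further on are shown first, because the pyrimidine run at the start is the sequence feature by which this family is best known. Each sequence is a 30-base window, from 15 bases before to 15 bases after the RefSeq start, read on the gene's own strand (RefSeq, build GRCm38.p6). Capitals mark the longest run of C and T letters where it reached 5 letters.
Rpl7a: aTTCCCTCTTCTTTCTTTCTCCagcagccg
Rpl35: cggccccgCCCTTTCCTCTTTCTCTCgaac
Rps10: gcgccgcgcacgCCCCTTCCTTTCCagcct
Rplp2: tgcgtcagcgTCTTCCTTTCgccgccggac
Rps27: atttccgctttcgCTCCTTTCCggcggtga
Rpl12: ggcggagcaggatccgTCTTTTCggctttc
Rpl39l: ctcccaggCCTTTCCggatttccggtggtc
Rps28: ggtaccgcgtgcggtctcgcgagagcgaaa
Rps4x: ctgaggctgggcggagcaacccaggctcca

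These windows lie at chr2:26910792-26910821 on the plus strand for Rpl7a, chr2:39005117-39005146 on the minus strand for Rpl35, chr17:27635230-27635259 on the minus strand for Rps10 and chr7:141447636-141447665 on the plus strand for Rplp2. The window of Rps27 is chr3:90213634-90213663 on the minus strand, that of Rpl12 chr2:32961697-32961726 on the plus strand, and that of Rpl39l chr16:10170213-10170242 on the plus strand. The window of Rps28 is chr17:33824548-33824577 and that of Rps4x chrX:102189377-102189406, both on the minus strand. The runs were 21 letters in Rpl7a, 18 in Rpl35, 13 in Rps10, 10 in Rplp2, 9 in Rps27 and 7 in both Rpl12 and Rpl39l, while Rps28 and Rps4x had no run of 5 in the window.

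A start region was found for 59 of the 80 members. A run of 8 or more C and T letters within 20 bases of the start, read on the sense strand, stood in 29 of the 59 (49.2%), against 18.4% of all 27025 genes with a start region. The letters CTTTCC stood in the same window in 11 members (18.6%, against 2.30% of all genes) and CTCTTT in 9 (15.3%, against 1.81%). These motifs can overlap each other and the pyrimidine run. Over the whole 300 bases and on either strand, CCGGAAG, the core letters bound by ETS-type factors, stood in 25 members (42.4%, against 9.93%), and TATAAA in 6 (10.2%, against 15.7%). A match is a run of letters and not a measured site. The pyrimidine run could lie before or after the start, and a gene with several RefSeq starts counted if any of them matched. The share of members whose messenger begins with a TOP motif was not measured.

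Levels are given as FPKM, a fragment level per length, relative to the library total. The table held between 6601290 and 15294927 reads per library, recovered from the FPKM values, and each value rests on a single library with no replicate. Differences are therefore given with exact 95% binomial intervals that cover counting error only, and no test was possible. Marker levels followed the labels. The summed level of 5 fibroblast markers was 12904 FPKM in MEF and 2.7 to 743 FPKM elsewhere. The sum of 5 pluripotency markers ran from 0.8 FPKM in MEF to 1797.5 in CiPSC and 1880 in ESC, and the sum of 5 XEN markers was highest in the XEN-like line, at 1647 FPKM. The sum of 5 two-cell markers was 5835 FPKM in reporter-positive and 176 in reporter-negative cells. Mitochondrially encoded genes took 14.2% of FPKM in reporter-negative and 7.19% in reporter-positive cells, against 1.60% to 5.20% in the others.

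As a whole the ribosomal protein genes took the smallest part of the transcriptome in the stage III day 4 control and day 6 libraries. They took the largest part in the reporter-sorted cells and the CiPSC line. Of all FPKM the members held 13.8% in MEF, 12.0% in the XEN-like line, 15.9% at stage II, 11.1% at day 6 of stage III, 15.9% at day 15, 19.5% at day 21, 22.7% in CiPSC and 18.9% in ESC. In the side arms they held 13.1% in FBS/KSR stage II cells, 11.4% in sorted OG+ cells, 10.7% in the stage III day 4 control, 13.49% with Opt. VPA, 23.2% in reporter-negative and 30.9% in reporter-positive cells. The day 4 control was lowest and the reporter-positive library highest, and from day 6 to CiPSC each later library was higher than the one before. The reporter pair differs from the other libraries in strain and starting line, and the part of these cannot be told apart. In reads the share ran from 4.91% (exact interval 4.89 to 4.92%) in the day 4 control to 18.7% (18.67 to 18.73%) in reporter-positive cells. Since FPKM are relative to the library total, a larger share can be more ribosomal protein RNA or less of other RNA, and in bulk samples a change in the kinds of cells cannot be told apart from a change per cell.

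**Figure D1:**
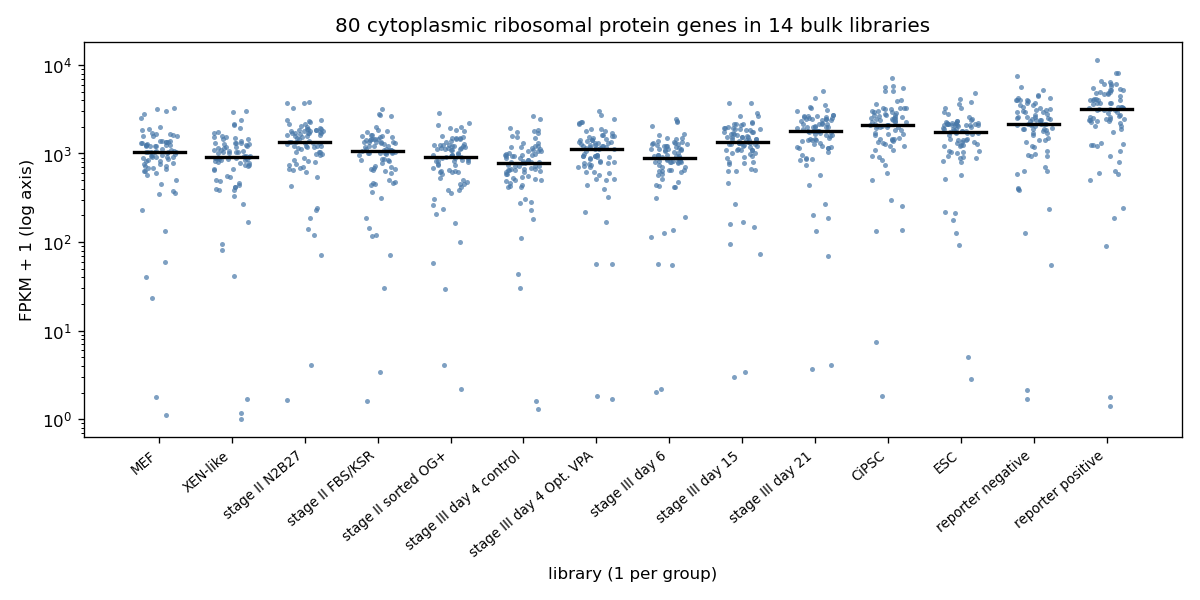
Level of each of the 80 members (points, FPKM + 1 on a log axis) in the 14 bulk libraries, with the median as a black bar. The median runs from 782 FPKM in the stage III day 4 control to 3159 FPKM in reporter-positive cells, and 3 members, Rpl3l, Rpl24 and Rpl39l in XEN-like cells, account for the points below 10 FPKM.

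Nearly all members were abundant everywhere. In every library 77 of the 80 were at 10 FPKM or more and 74 at 100 or more, and between 36 and 64 members were among the 100 highest entries of each library. The median member stood at 1034 FPKM in MEF, 909.7 in the XEN-like line, 1337 at stage II, 887 at day 6, 1334 at day 15, 1782 at day 21, 2113 in CiPSC and 1751 in ESC. The highest level of a member lay in reporter-positive cells for 60 members and in CiPSC for 18, with 1 each in MEF (Rpl12) and at stage II (Rpl24). The lowest level lay in the day 4 control for 47 members, in XEN-like cells for 13 and at stage III day 6 for 8. From lowest to highest library a member spanned a median of 4.66-fold, 49 members spanned under 5-fold and 4 spanned 10-fold or more. No such counts over all entries are given beside these. The FPKM total itself ran from 635828 in MEF to 851348 in reporter-positive cells.

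The members moved mostly as a block. After the library's member median was taken off, the SD of a member's log2 level over the 14 libraries had a median of 0.25. It was under 0.5 for 70 members, and the same SD over other genes is not given. As a description, 57 members had a Pearson correlation of 0.9 or more with the mean over members across the 14 libraries, a mean of which each is itself part. The 5 with 0.5 or less were Rpl12 (-0.36), Rpl24 (0.0082), Rpl29 (0.23), Rplp0 (0.42) and Rpl3l (0.46). The summed FPKM of the small subunit was 0.68 of that of the large subunit in XEN-like cells, 0.71 in MEF, 0.70 at stage II, 0.76 in CiPSC, 0.75 in ESC and 0.81 in reporter-positive cells.

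Among the members the highest mean levels belonged to Rplp1 (4291 FPKM), Rpl13a (3502), Rps14 (3212), Rpl41 (3028) and Rps2 (2829.8). Rplp1 is one of the acidic P-stalk proteins that bring elongation factors to the ribosome. Along the process it stood at 3241 FPKM in MEF, 2098 in the XEN-like line, 3788 at stage II, 2245 at day 6, 3735 at day 15, 5096 at day 21, 7189.9 in CiPSC and 4880.2 in ESC. In the side arms it stood at 2806 FPKM in FBS/KSR cells, 2235 in sorted OG+ cells, 1804 in the control, 2266 with Opt. VPA, 7431 in reporter-negative and 11264 in reporter-positive cells. Its lowest and highest libraries were those of the member median.

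At the other end, Rpl24, a large-subunit protein whose mutation gives the Belly spot and tail mouse, was listed at only 0.58 to 3.07 FPKM, from 2 to 19 reads a library. Rpl23a and Rpl35, which sit around the exit of the nascent peptide, were at 42.1 to 184 and 119.98 to 601 FPKM, well under the typical member. These entries are very low for proteins that every ribosome holds, and reads that fit several copies of a gene may have been counted elsewhere, so their levels are uncertain. Outside the rule, Fau and Gnb2l1, which make small-subunit proteins, were at 1059 to 3582 and 522 to 2349 FPKM.

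From MEF to XEN-like cells the ribosomal protein genes were slightly lower, and lower relative to the other genes. Over the 78 members at 1 FPKM or more the median log2 fold was -0.11, against 0.21 over all 13360 such entries, and 6 of the 78 lay above the median of all entries. At 2-fold, 0 members were higher (18.8% of all entries were) and 3 were lower (17.5% of all). At 1.5-fold, 0 were higher and 9 lower, against 34.2% and 24.7% of all entries. Those past 2-fold were Rpl39, Rpl39l and Rps29, the last a zinc-binding small-subunit protein. Rpl39, which lines the exit tunnel, was at 505 FPKM in XEN-like cells and 1248 in MEF, 2.47-fold lower (interval 2.36 to 2.59). Rps29 was at 399.6 against 1059.8 FPKM, 2.65-fold lower (2.50 to 2.82). Rpl7a and Rpl29 were at the other edge, at 1304 against 1039 FPKM and 666 against 500.3 FPKM. With scaling by the median of ratios the member median was -0.42, against -0.07 over all entries, and 6 members were past 2-fold.

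From XEN-like cells to stage II the family was higher as a block. Their median log2 fold was 0.56 against 0.05 over all entries, and 76 of 79 members lay above the median of all entries. At 1.5-fold, 37 of the 79 were higher and 1 lower, against 27.2% and 18.3% of all entries. At 2-fold, 5 were higher (17.7% of all entries) and 1 lower (8.56%). The 5 were Rpl39l, Rps4l, Rpl24, Rpl26 and Rps21, and the 1 that was lower was Rpl12. Rpl26, a tunnel-exit protein, was at 1045 FPKM at stage II and 412 in XEN-like cells, 2.53-fold higher (interval 2.40 to 2.67). By contrast Rps2, at the messenger entry site, was listed as level at 2376 and 2367 FPKM. Its copies Rps2-ps13 and Rps2-ps10 were at 522 and 487 FPKM at stage II, against 330 and 37.1 in XEN-like cells. Reads may be shared with these copies, so its course is uncertain.

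From stage II to stage III day 6 nearly every member was lower again. Members had a median log2 fold of -0.57, against -0.04 over all entries, and 3 of 80 members lay above the median of all entries. At 1.5-fold, 36 members were lower and 0 higher, against 20.6% and 19.1% of all entries. At 2-fold, 5 were lower (8.98% of all entries) and 0 higher (9.99%). They included Rplp0, Rpl23a, Rpl12 and Rps10. The P-stalk genes moved farthest of the subunit groups, with a median of -0.97 over the 3 against -0.50 for the small subunit and -0.57 for the rest of the large subunit. Rplp0, the base protein of the stalk, was at 1679 FPKM at day 6 and 3706 at stage II, 2.21-fold lower (interval 2.16 to 2.25). Rplp2 was at 806 and 1576 FPKM, 1.95-fold lower (1.88 to 2.03). Rps29 and Rps27 stayed level, at 710.4 against 708 and 137 against 138 FPKM.

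**Figure D2:**
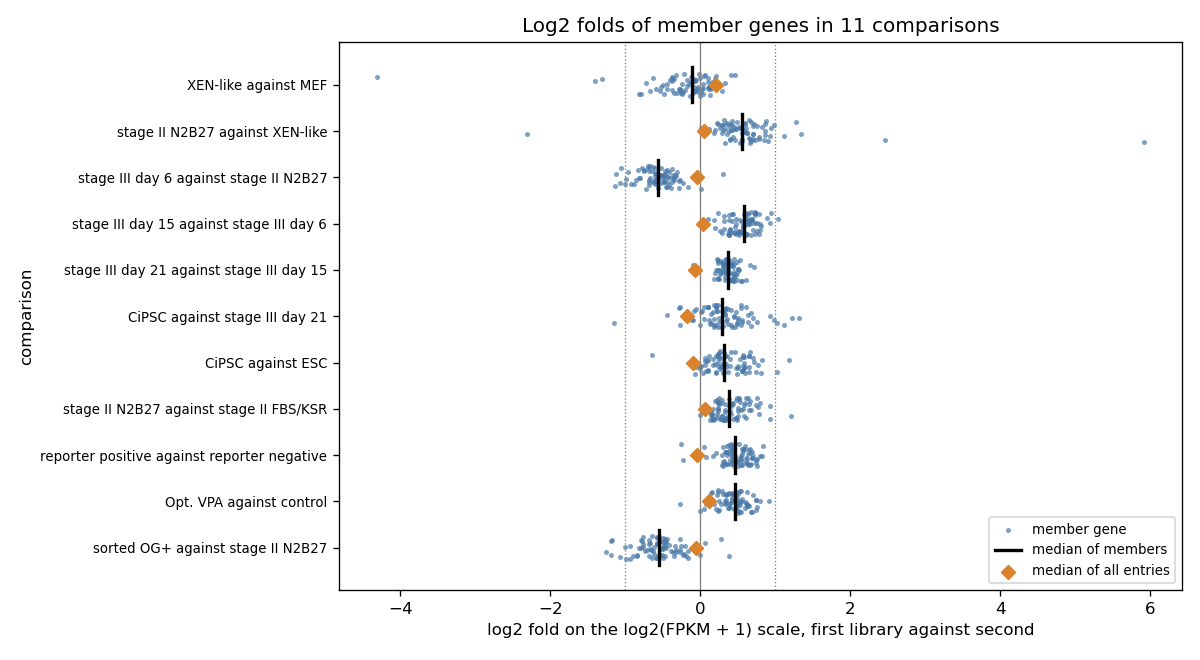
Log2 fold of each member with at least 1 FPKM in either library (points) in the 11 comparisons, with the median of members (black bars) and of all entries (orange diamonds). The members form a narrow cloud to one side of the all-entry median in each comparison, for example 0.58 against 0.04 for stage III day 15 against day 6, while single genes such as Rpl39l and Rpl12 stand far out in the first 2 comparisons.

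Between stage III day 6 and day 15 the members were back near their stage II level. As a median the members' log2 fold was 0.58, against 0.04 over all entries, and all 80 members lay above the median of all entries. At 1.5-fold, 40 of 80 were higher and 0 lower, against 15.5% and 12.4% of all entries. At 2-fold, 1 was higher (6.23% of all entries) and 0 lower (5.02%). That 1 was Rps29, at 1456 FPKM against 710.4, 2.05-fold (interval 1.95 to 2.15). Rps23, which sits in the decoding centre, followed at 1829 against 954 FPKM.

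Between day 15 and day 21 the block moved up by a similar, smaller step in almost every gene. On the log2 scale the members' median was 0.37 with quartiles of 0.31 and 0.44, against -0.07 over all entries, and 79 of 80 members lay above the median of all entries. At 2-fold, 0 members were higher (1.72% of all entries) and 0 lower (7.5%), and at 1.5-fold 3 were higher (9.28%) and 0 lower (19.2%). The quartile range of 0.13 was the smallest of the 11 comparisons.

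From day 21 to the CiPSC line the members spread out more. Their median difference in log2 was 0.29, against -0.18 over all entries, and 75 of 80 members lay above the median of all entries. At 2-fold, 4 were higher (4.88% of all entries) and 1 lower (15.4%), and at 1.5-fold 13 were higher (13.6%) and 1 lower (29.2%). The higher ones were Rpl35, Rps2, Rpsa and the near-silent Rpl3l, and the lower one was Rpl24, on 5 against 13 reads. Rpl35 was at 500.2 FPKM in CiPSC and 200.5 at day 21, 2.49-fold higher (interval 2.32 to 2.68). Rps2 was at 5789 and 2477 FPKM, 2.34-fold higher (2.30 to 2.38). Rpsa, the small-subunit protein also known as the laminin receptor precursor, was at 2517 and 1163 FPKM, 2.16-fold higher (2.13 to 2.20). The copies Rps2-ps13 and Rps2-ps10 were at 0.49 and 84.4 FPKM in CiPSC, against 589 and 404 at day 21. Rpsa-ps10 ran from 2.03 to 544 FPKM over the 14 libraries. Reads may be shared with these copies, so the folds of Rps2 and Rpsa are uncertain. By contrast, Rpl14 was lower in CiPSC, at 1452 against 1965 FPKM, and so were Rpl26 (1079.9 against 1309.7) and Rps21 (2106 against 2536). Without mitochondrially encoded genes in the total the member median was 0.16, against -0.29 over all entries.

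Set against the ESC line, the CiPSC line gave a larger share of its RNA to ribosomal proteins. In log2 the median member differed by 0.31, against -0.09 over all entries, and 79 of 80 members lay above the median of all entries. At 1.5-fold, 17 members were higher and 1 lower, against 7.86% and 17% of all entries. At 2-fold, 2 were higher (1.79% of all entries) and 0 lower (4.77%). Rpl35 was the farther above, at 500.2 against 219 FPKM (2.29-fold, interval 2.14 to 2.44). Rps21, Rpl23 and Rpl22 were near level, at 2106 against 2245, 2003 against 2109 and 843 against 882 FPKM. Without mitochondrially encoded genes in the total the median was 0.18, against -0.21 over all entries. Strain and line differ along with origin here and cannot be told apart.

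At stage II the N2B27 culture had a larger ribosomal protein share than the FBS/KSR culture. Across members the log2 median was 0.38, against 0.07 over all entries. At 1.5-fold, 16 of 79 members were higher, about the background of 22.3%, and 0 lower (15.9%). At 2-fold, 1 was higher (10.7% of all entries) and 0 lower (7.3%), and this was Rpl39l, at 69.6 against 29.6 FPKM. Rplp2 was at 1576 against 826 FPKM and Rps10 at 1920.4 against 1012. Rpl10, which joins the large subunit last, was level at 1594 and 1599 FPKM. Marker sums of other cell types differed as well. In the N2B27 against the FBS/KSR library the fibroblast sum was 124 against 250.03 FPKM, the XEN-like sum 490.1 against 719, the trophoblast sum 73.6 against 171, the immune sum 27.4 against 87.8, the endothelium sum 10.8 against 41.9 and the two-cell-like sum 223 against 97.4. Their part in the result was not tested.

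The sorted OG+ PDGFRAlow/- PECAM- cells had a smaller share than the unsorted stage II culture of the same medium label. By median the members' log2 difference was -0.55, against -0.06 over all entries, and 4 of 80 members lay above the median of all entries. At 1.5-fold, 33 members were lower and 0 higher, against 24.2% and 22.3% of all entries. At 2-fold, 6 were lower (12% of all entries) and 0 higher (12%). The 6 were Rpl23a, Rpl26, Rpl39l, Rplp0, Rps21 and Rps25. Rps25, a head protein of the small subunit used by some viral entry sites, was at 636 FPKM in sorted and 1446 in unsorted cells, 2.27-fold lower (interval 2.19 to 2.36). As listed, Rps2 went the other way, at 2866 against 2376 FPKM, 1.21-fold higher (1.18 to 1.23). Its copies Rps2-ps13 and Rps2-ps10 were at 0.36 and 35.5 FPKM in sorted cells, against 522 and 487 in unsorted cells. Copies share sequence with their parents, so the direction for Rps2 is uncertain. Mitochondrially encoded genes were also lower in the sorted cells, 8 of 12 measured by at least 2-fold, and marker sums of several cell types differed. The trophoblast sum was 676 FPKM in sorted and 73.6 in unsorted cells, the two-cell-like sum 662 against 223 and the immune sum 123 against 27.4, while the XEN-like sum was 253 against 490.1 and the fibroblast sum 45.7 against 124. The part of all these in the result was not tested.

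In the Zscan4c reporter pair both libraries were rich in ribosomal protein RNA, and the positive cells the richer. Members stood at a log2 median of 0.46, against -0.04 over all entries, and 77 of 79 members lay above the median of all entries. At 1.5-fold, 24 of 79 were higher and 0 lower, against 16.9% and 16.1% of all entries. At 2-fold, 0 were higher (8.37%) and 0 lower (5.15%). Rps29 was farthest above at 3752 against 2104 FPKM (1.78-fold, interval 1.73 to 1.84), followed by Rps21 at 8148 against 4613 and Rps20 at 2038 against 1171. Rps27l stood apart, at 586 FPKM in positive and 699.8 in negative cells, 1.20-fold lower (1.13 to 1.27). The mitochondrially encoded share was 7.19% in the positive and 14.2% in the negative library. With each library scaled to the same total without those genes the median was 0.25, against -0.22 over all entries. In positive against negative cells the XEN-like marker sum was 232 against 442 FPKM, the pluripotency sum 244 against 147 and the trophoblast sum 23.6 against 47.8. The part of these cell types was not tested. Both libraries also differ from the others in strain and starting line, which cannot be told apart from their high level.

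At stage III day 4 the Opt. VPA library had the larger share. In log2 units the member median was 0.47, against 0.12 over all entries, and 74 of 78 members lay above the median of all entries. At 1.5-fold, 17 of 78 were higher (16% of all entries) and 0 lower (9.23%). At 2-fold, 0 were higher (5.77%) and 0 lower (3.28%). Rpl5 and Rpl11 carry the 5S ribosomal RNA and, outside the ribosome, bind Mdm2. Rpl5 was at 810.3 against 466 FPKM, 1.74-fold higher (interval 1.67 to 1.82), and Rpl11 at 1315 against 941 FPKM, 1.40-fold higher (1.34 to 1.45). The short Rps29 was lower with Opt. VPA, at 881 against 1065 FPKM (1.21-fold, 1.15 to 1.27), while Rps27 was level at 502 against 501 FPKM.

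The comparisons share libraries, above all the stage II N2B27 library, which enters 4 of them, so that a high or low value in it moves each of those. Scaling by the median of ratios moved the all-entry median by more than 0.1 in 4 comparisons, to -0.07 for XEN-like against MEF, to -0.05 for CiPSC against day 21, to 0.0069 for CiPSC against ESC and to 0.01 for Opt. VPA against control. A total without mitochondrially encoded genes moved it to -0.29 for CiPSC against day 21, -0.21 against ESC and -0.22 in the reporter pair. Relative to all entries the member median stayed close under the median of ratios, at -0.35 against -0.32 for XEN-like against MEF and 0.48 against 0.47 for CiPSC against day 21. No scaling turned the direction of the member median in any of the 11 comparisons.

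**Figure D3:**
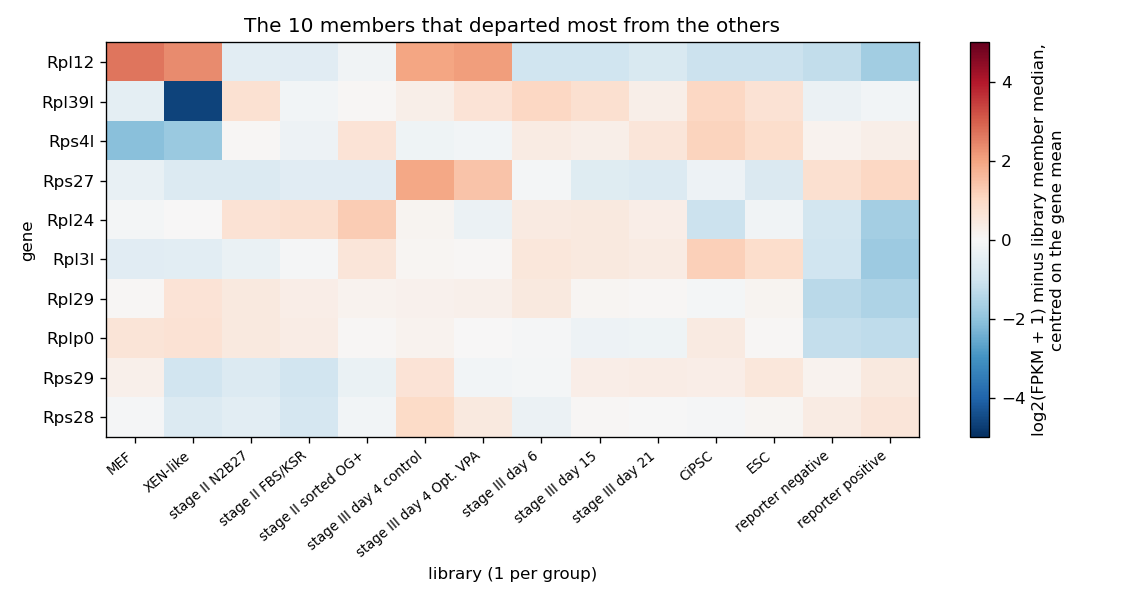
The 10 members whose level departed most from the rest, by library. Colour gives the log2(FPKM + 1) of the gene minus the library's member median, centred on the gene's mean over the 14 libraries. Rpl12 is high in MEF, XEN-like cells and both stage III day 4 libraries, Rpl39l is very low in XEN-like cells, and Rps4l is low in MEF and XEN-like cells.

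Rpl12, which forms the base of the stalk together with Rplp0, had the most unusual course of any member. It stood at 1709.9 FPKM in MEF, 1189 in the XEN-like line, 239.6 at stage II, 114 at day 6, 169.6 at day 15, 269 at day 21, 255 in CiPSC and 213 in ESC. In the side arms it stood at 184 FPKM in FBS/KSR cells, 208 in sorted OG+ cells, 792 in the day 4 control, 1224 with Opt. VPA, 234 in reporter-negative and 243 in reporter-positive cells. The grouping into 4 high libraries (792 FPKM or more) and 10 low ones (269 FPKM or less) was made from these values themselves. From XEN-like cells to stage II it was 4.96-fold lower (interval 4.69 to 5.26) while the block was higher. Its stalk partner Rplp0 did not share this split, at 1719 FPKM in the control and 2231 with Opt. VPA against 3706 at stage II. Hsp90aa1, a chaperone gene chosen after its values were seen, had the same 4 libraries on top, at 434 to 1218 FPKM against 32.1 to 168 in the other 10. So did the biogenesis factors Rrp12, at 6.17 to 11.6 against 0.35 to 1.42 FPKM, and Rrp9, at 50.3 to 140.0 against 14.8 to 36 FPKM. Both were also chosen after their values were seen, and how many of all entries share this top 4 is not given. Nothing in the labels sets these 4 libraries apart, and whether the split lies in the cells or in how the libraries were made was not tested.

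Rplp0 and Rpl29 were among the members that departed in the reporter pair, which also differs from the other libraries in strain and starting line. Other members departed too, such as Rpl30. Relative to the member median it was at -1.77 and -1.97 log2 units in negative and positive cells, against -0.86 to -0.27 elsewhere. Rplp0 was at 1872 FPKM in negative and 2561 in positive cells, under its own level in MEF (3206) although the member median was more than in MEF. Rpl29, a large-subunit protein that mice can live without, was at 388 FPKM in negative and 497 in positive cells and at 422 to 917 FPKM in the other libraries, so its lowest level lay in a library where most members were high.

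Short members differed most from long ones in the 2 comparisons with the XEN-like line, and less in others. The 10 members under 500 bases had a median log2 fold of -0.49 from MEF to XEN-like cells, against -0.07 for those of 700 bases or more, and 0.76 against 0.43 from XEN-like cells to stage II. Over other entries at 100 FPKM or more the same length classes gave 0.44 and 0.35, then 0.30 and -0.16. Other short entries were thus not lower than long ones in the XEN-like line against MEF, but from the XEN-like line to stage II they stood above long ones, as the short members did. Short members also stood above long ones for N2B27 against FBS/KSR, at 0.58 against 0.33, and in the reporter pair, at 0.67 against 0.43. Other entries gave 0.64 and 0.05, then 0.22 and -0.06. In the remaining comparisons the gaps were smaller and went both ways. Examples are -0.43 against -0.59 for day 6 against stage II and 0.34 against 0.48 for Opt. VPA against control. The part of length in these folds was not tested. Rps28 stood at 1127 FPKM in MEF, 641 in the XEN-like line, 1041 at stage II and 667 in FBS/KSR cells, against 1726 in the day 4 control and 5391 in reporter-positive cells. Rps29 was at 1059.8 FPKM in MEF, 399.6 in the XEN-like line, 708 at stage II, 710.4 at day 6, 1456 at day 15, 1986 at day 21, 2252 in CiPSC and 2196 in ESC. Fragment length was not analysed here.

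**Figure D4:**
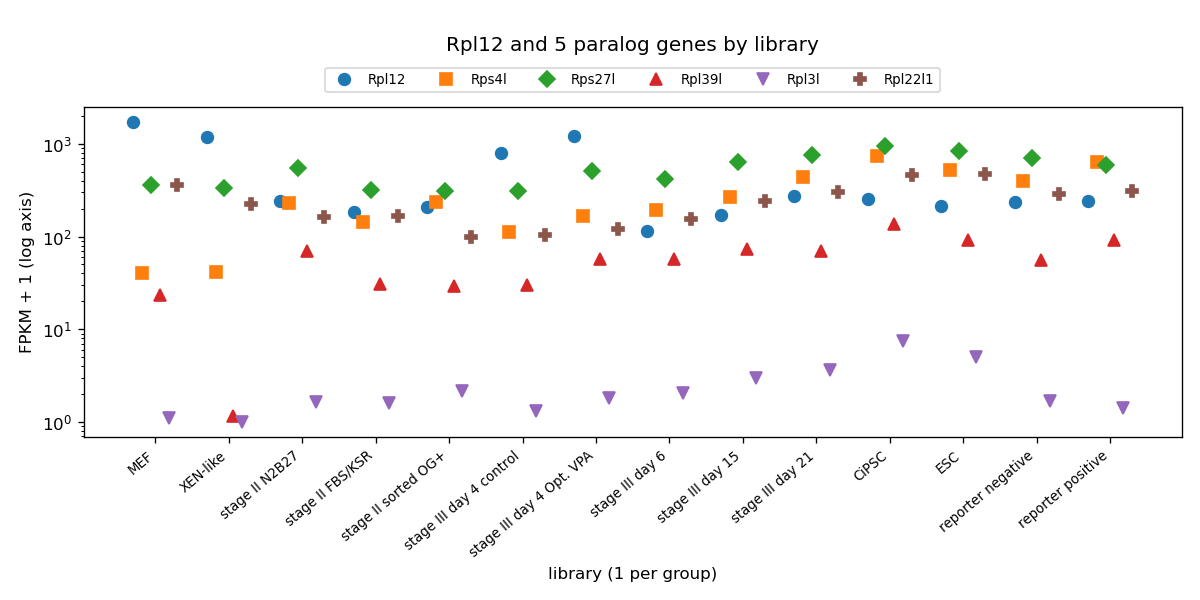
Levels of Rpl12 and of 5 paralog genes (FPKM + 1 on a log axis) in the 14 bulk libraries, 1 point per library. Rpl39l drops to 0.17 FPKM in XEN-like cells, Rps4l runs from 39.1 FPKM in MEF to 737 in CiPSC, and Rpl3l stays at 6.51 FPKM or less.

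Paralogs replace or stand beside a core ribosomal protein in some tissues. Rpl39l, the paralog of Rpl39 best known from male germ cells, stood at 22.2 FPKM in MEF, 0.17 in the XEN-like line (1 read), 69.6 at stage II, 55.7 at day 6, 73 at day 15, 68.1 at day 21, 135 in CiPSC and 91.2 in ESC. In the side arms it stood at 29.6 FPKM in FBS/KSR cells, 28.6 in sorted OG+ cells, 29 in the control, 55.6 with Opt. VPA, 54.7 in reporter-negative and 89.9 in reporter-positive cells. Only the XEN-like library was near 0. Its ratio to MEF rested on 1 against 147 reads and was 127-fold lower (interval 22.5 to 5068). Relative to Rpl39 it reached 8.07% in CiPSC, 7.48% at day 6 and 7.18% at stage II, and was 1.78% in MEF and 0.0345% in XEN-like cells.

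Rps4l, an autosomal copy of the X-linked Rps4x that RefSeq lists as a transcribed pseudogene, had another order of libraries. It was at 39.1 FPKM in MEF, 40.3 in the XEN-like line, 226 at stage II, 192 at day 6, 265 at day 15, 435 at day 21, 737 in CiPSC and 520.5 in ESC. In the side arms it was at 144 FPKM in FBS/KSR cells, 236 in sorted OG+ cells, 109.6 in the control, 166 with Opt. VPA, 391 in reporter-negative and 632 in reporter-positive cells. MEF and XEN-like cells were below all others. From XEN-like cells to stage II it was 5.62-fold higher (interval 4.98 to 6.35), and as a part of Rps4x it went from 3.65% to 15.2% and on to 26.9% in CiPSC. Reads may be shared between the pair.

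Rpl3l, the striated-muscle paralog of Rpl3, was at 0 in XEN-like cells and at 0.1 to 4 FPKM in the other libraries outside CiPSC, where it reached 6.51 FPKM on 75 reads. It was at most 0.281% of Rpl3. Rps27l, which is a p53 target in human cells, was at 356 FPKM in MEF, 332 in the XEN-like line, 542 at stage II, 414 at day 6, 636 at day 15, 747 at day 21, 939 in CiPSC and 832 in ESC. Along the process its order of libraries was near that of the family, while in the reporter pair it was lower in the positive cells. Rps27 itself was listed at 93.5 to 1060.3 FPKM, under its retrotransposed copy Rps27rt, which was at 625 to 5199.6 FPKM. Outside the reporter pair it stood at 501 and 502 FPKM in the 2 day 4 libraries, against 93.5 to 295 in the other 10. Since reads may be divided between Rps27 and Rps27rt, neither level is certain.

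Rpl22l1, whose RNA is known to be held down by Rpl22 protein, followed the family less closely. Its level was 358 FPKM in MEF, 225 in the XEN-like line, 161 at stage II, 155 at day 6, 237 at day 15, 298 at day 21, 463 in CiPSC and 476 in ESC. Rpl22 was at 379, 412, 681, 414, 634, 899, 843 and 882 FPKM in the same libraries. The paralog was thus 94.5% of its parent in MEF, 23.7% at stage II and 54.9% in CiPSC. Rpl36al was 25.1% to 64.4% of Rpl36a and Rpl7l1 4.5% to 8.78% of Rpl7. Rpl10l, the germ-cell retrogene that the naming rule leaves out, was listed at 0 in both MEF and the XEN-like line, 12.7 FPKM at stage II, 13.4 at day 6, 72.7 at day 15, 144 at day 21, 162 in CiPSC and 173 in ESC.

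Copies with -ps in the symbol took a small part of the signal. Of 246 such entries, 148 were above 0 somewhere, and together they were 0.61% to 2.21% of the members' FPKM. This leaves out copies under other names, such as Rps27rt, Rps3a2 and Rps3a3. Rps27rt alone was at 625 to 5199.6 FPKM over the 14 libraries, beside 977 to 4680 FPKM for all 246 together. Single copies nonetheless differed sharply between libraries. Rps2-ps13 was at 254 to 595 FPKM in 8 libraries and at 5.8 or less in MEF, sorted OG+ cells, CiPSC, ESC and the reporter pair. Rps26-ps1 was at 389 FPKM in ESC, at 98.7 to 169 in the 5 stage II and stage III day 6 to 21 cultures, and at 4.7 or less in the other 8. Rps3a1, which makes a core small-subunit protein, was at 469 and 552 FPKM in the reporter pair and up to 2418 in CiPSC, while its copies Rps3a2 and Rps3a3 were at 518 to 770 FPKM in the pair and at most 1.1 in MEF, XEN-like cells, CiPSC and ESC. Copies share sequence with their parents, so these levels are uncertain.

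Other genes of ribosome production differed from the ribosomal protein genes in their median folds at several steps. Ribosome biogenesis factors process and assemble ribosomal RNA, RNA polymerase I transcribes it, and mitochondrial ribosomal proteins serve the ribosome of the mitochondrion. From MEF to XEN-like cells, 10 of 42 biogenesis factors were at least 2-fold higher and 0 lower, beside 18.8% and 17.5% of all entries, with a median log2 fold of 0.68 against 0.21 over all entries. Of 14 polymerase I genes 5 were higher and 0 lower (median 0.64), and of 76 mitochondrial ribosomal proteins 28 were higher and 0 lower (median 0.82). The members' median was -0.11. The share of biogenesis factors called higher was near that of all entries. Nop56, of the small nucleolar ribonucleoprotein that methylates ribosomal RNA, was at 351 FPKM in the XEN-like line against 124 in MEF, and Rrp9 at 140.0 against 50.3. Rrp9 had the same 4 libraries on top as Rpl12.

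From XEN-like cells to stage II the order was reversed, with medians of -0.03, 0.01 and 0.04 for the 3 lists and 0.56 for the members. At stage III day 6 against stage II all 3 were lower, with medians of -0.30, -0.25 and -0.24 beside -0.57 for the members. From day 6 to day 15 they were at 0.26, 0.21 and 0.11 beside 0.58 for the members and 0.04 over all entries, and from day 15 to day 21 all were higher, at 0.38, 0.37 and 0.19 beside 0.37 for the members. Translation factors and other genes with TOP messages, 19 in all, had medians of 0.09, 0.08, -0.55, 0.29, 0.32 and 0.34 over the 6 steps from MEF to CiPSC. Eef1a1, the elongation factor that carries aminoacyl-tRNA, was at 10182 FPKM in MEF, 7436 in the XEN-like line, 8564 at stage II, 6854 at day 6, 9436 at day 15, 11097 at day 21, 13925 in CiPSC and 11206 in ESC. Differences between the lists were not tested.

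**Figure D5:**
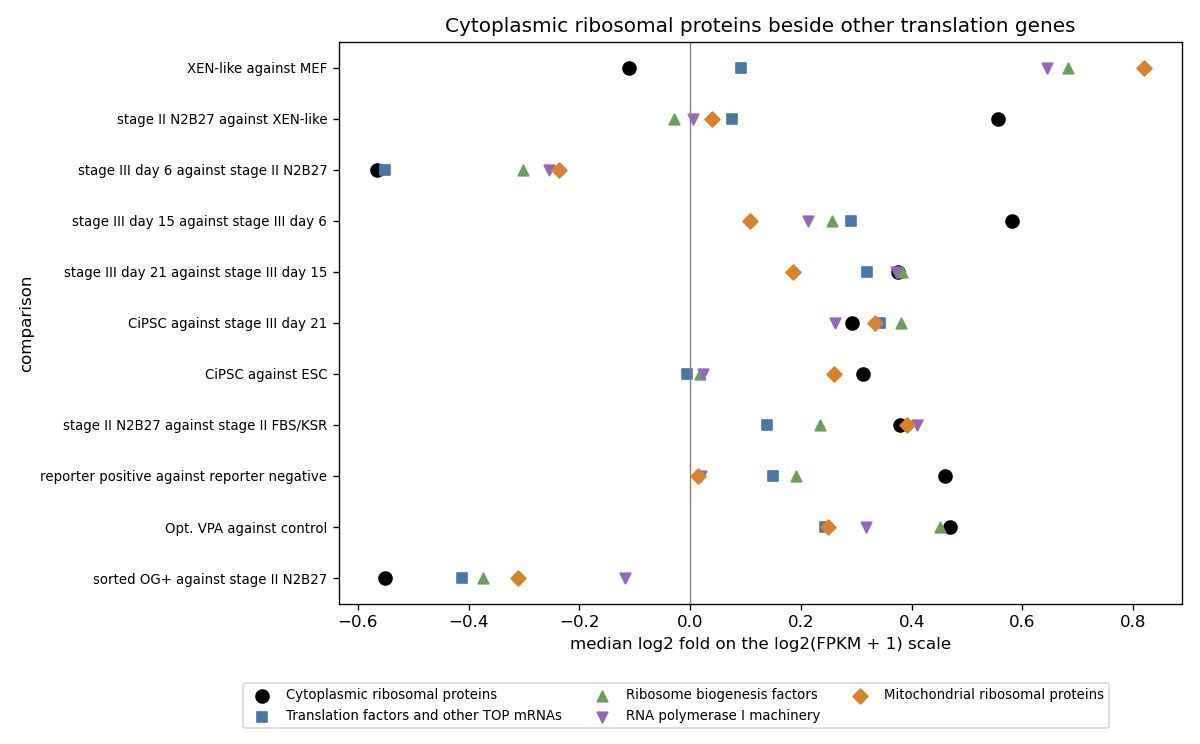
Median log2 fold of the cytoplasmic ribosomal protein genes (black) and of 4 other lists of translation genes in the 11 comparisons. The lists part in the first 2 rows, where the members are at -0.11 and 0.56 and mitochondrial ribosomal proteins at 0.82 and 0.04, and lie closer together from stage III day 21 to CiPSC, at 0.26 to 0.38.

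The regulators of TOP messages did not follow one direction. Myc, which drives ribosome production, was at 54.9 FPKM in MEF, 4.8 in the XEN-like line, 10.9 at stage II, 18.4 at day 6, 8.9 at day 15, 1.2 at day 21, 3 in CiPSC and 1.9 in ESC. Mycn was at 1.5 FPKM in MEF, 24.5 in the XEN-like line, 13.6 at stage II, 27 at day 6, 41.1 at day 15, 54.8 at day 21, 33.6 in CiPSC and 32.8 in ESC. Eif4ebp1, which holds back cap-dependent translation until mTOR phosphorylates it, was at 272 FPKM in MEF, 91.8 in the XEN-like line, 186 at stage II, 141 at day 6, 323 at day 15, 482 at day 21, 709 in CiPSC and 392 in ESC. Mtor itself ran from 9.6 to 31.3 FPKM and Larp1 from 26.3 to 67 FPKM, both lowest in reporter-positive cells.

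Outside the family, the genes whose log2 level was most like the mean over members, among 10750 entries at 10 FPKM or more in any library, were 1500011K16Rik (Pearson r 0.96), Mrpl17 (0.94), Arrb2 (0.94), Dnph1 (0.93) and Nek3 (0.93). These correlations are over 14 libraries that differ in depth and strain, and they are a description.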

How the data were processed

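Bulk total RNA was made into libraries with the NEBNext Ultra RNA kit, per the labels' protocols. The authors deposited 1 table of FPKM values for 14 libraries, with 35275 entries under 35203 names. The submitters' processing notes name mm10, Bowtie2, Bismark, FastQC and Cell Ranger 2.0.1 without roles. For the bulk libraries the aligner, counter, annotation and strandedness are each "not given in the sources used here".

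Ratios of FPKM across entries gave whole reads for the 23178 entries with values in 2 or more libraries; 2231 entries were above 0 in 1 library and 9866 at 0. Recovered gene lengths were whole within 0.01 base for 99.7% of entries. Library totals were 6601290 to 15294927 reads. Recovery, folds and intervals were tested on simulated data.

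Each of 11 comparisons sets 1 library against 1, so there is no test. Log2 folds use log2(FPKM + 1) among entries at 1 FPKM or more in either library, and a call is 2-fold (1.5-fold as an alternative). Folds in the text are ratios of FPKM, with exact binomial (Clopper-Pearson) 95% intervals from reads, which cover counting error only. Alternatives were 3 scalings, a pseudocount of 0.1, a 10 FPKM filter, no filter and other member rules.

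Genes named are paralogs and their parents, the 5 highest and 5 lowest members by mean, the 10 with the largest SD, the 3 farthest above and below the member median in each comparison, a set of members with known roles, and the leading genes of the companion lists. Members that passed 2-fold and copies with the largest differences were named after their values were seen. The members and lists were chosen with earlier results of these data known. Promoter sequences are RefSeq's (GRCm38.p6), matched by symbol; 21 members had none. Python 3.11.15, numpy 2.4.6, pandas 2.3.3 and scipy 1.17.1 were used. Some genes are not reported here.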

Additional observations from a re-analysis of the deposited data

How the results depend on the processing

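No paired analysis was possible because each group has 1 library and the labels number no replicates. No setting turned the direction of a member median, and the cause of the moves was not tested. Scaling by the median of ratios moved the median log2 fold to -0.42 for XEN-like against MEF, 0.61 for stage II against XEN-like, -0.51 for day 6 against stage II, 0.48 for day 15 against day 6, 0.43 for CiPSC against both day 21 and ESC, 0.52 in the reporter pair, 0.35 for Opt. VPA and -0.49 for sorted OG+ cells. A total without mitochondrially encoded genes gave 0.49 for stage II against XEN-like, -0.51 for day 6, 0.51 for day 15, 0.29 for day 21, 0.16 and 0.18 for CiPSC against day 21 and ESC, 0.30 against FBS/KSR, 0.25 in the reporter pair and 0.40 for Opt. VPA. A total without the members gave -0.19 for XEN-like against MEF, 0.23 and 0.26 for CiPSC against day 21 and ESC, 0.33 against FBS/KSR and 0.52 in the reporter pair.

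Counts of members at 2-fold became 6 for XEN-like against MEF, 3 for day 6 and 0 for day 15 with the median of ratios. They became 0 for day 15, 3 for CiPSC against day 21 and 1 against ESC without mitochondrially encoded genes in the total, and 1 against ESC without the members in it. A 10 FPKM filter gave 3 for CiPSC against day 21. At 1.5-fold the counts in the order of the report were 9, 38, 36, 40, 3, 14 and 18 along the process and against ESC, 16 against FBS/KSR, 24 in the reporter pair, 17 for Opt. VPA and 33 for sorted OG+ cells. Of 2 alternatives chosen after seeing the data, leaving out the 9 members with copies that reach 100 FPKM gave 3 for CiPSC against day 21, and keeping members of 500 bases or more gave 0 for day 15. The pseudocount, no filter and the added ribosomal proteins moved no result. Members with few reads, such as Rpl24 and Rpl3l, are limited by depth.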

Other observations

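The median of the p53 target list beside Rps27l had the opposite sign to that of the ribosomal protein genes in 3 of the 11 comparisons. In the others the signs were the same, for example 0.54 and 0.47 for Opt. VPA against control. In the reporter pair the 9 genes of the p53 list had a median log2 fold of -0.74. The ribosomal protein median was 0.46 and that of all entries -0.04. Phlda3 was at 101 FPKM in positive and 260.1 in negative cells, and Bax, a cell death gene, at 160.0 and 304. Of the 9 genes 1 was at least 2-fold lower and 0 higher, beside 5.15% and 8.37% of all entries. For CiPSC the p53 list median was -0.49 against ESC and -0.27 against day 21, beside 0.31 and 0.29 for the ribosomal protein genes. All entries had medians of -0.09 and -0.18 there. Against ESC 2 of the 9 were lower and 0 higher, beside 4.77% and 1.79% of all entries. Against day 21, 1 was lower and 1 higher, beside 15.4% and 4.88% of all entries. From XEN-like cells to stage II both lists were higher, the p53 list at 0.84 and the ribosomal protein genes at 0.56, with Cdkn1a, a cell cycle inhibitor, at 215 against 104 FPKM. Hosts of small nucleolar RNAs, which share the TOP start, had a median log2 fold of -0.46 over 5 genes in CiPSC against ESC, beside -0.09 over all entries. Of these 5 genes 0 passed 2-fold in either direction, beside 4.77% of all entries lower and 1.79% higher. Among the 5 was Gas5 at 379.8 against 580.1 FPKM. Gas5 was also low in the reporter pair, at 58.5 and 55.1 FPKM, against 180.2 to 608 in the other 12 libraries. These are values of single libraries, with no replicate.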
